A study of Mus musculus with 6 samples.

Results

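The TNF ligands and receptors measured here were 42 of the 22206 probe sets of a mouse expression array. The rule that picks them reads the gene symbol and no measured value: the symbols that begin with Tnfsf or Tnfrsf and a number, and the family genes that carry other names (Tnf, Lta, Ltb, Ltbr, Fas, Fasl, Cd40, Cd40lg, Cd70, Eda, Edar, Eda2r and Ngfr). The 42 probe sets stood for 42 genes, 16 ligands and 26 receptors. The receptors comprised 7 with a death domain, 16 without one and 3 decoy receptors. Cd27, and the ligands Tnfsf12 and Tnfsf13, were on 2 probe sets that carry several gene symbols, and these were kept apart.

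The cells were C2C12 myotubes, a mouse skeletal muscle line grown as myoblasts and fused into multinucleated fibres by lowering the serum, on day 6 of differentiation. Myotubes were left untreated (Ctrl-M) or exposed for 6 h to sugarcane top ethanolic extract (STEE) at 30 µg/mL (STEE30-M) or 50 µg/mL (STEE50-M), with 2 arrays in each of the 3 groups. The labels give the extract in serum-free Opti-MEM and say of the control only that its RNA was taken on the same schedule. The paper suspended the extract in ethanol and calls the control nontreated, without saying whether it received ethanol. Extract, ethanol and medium therefore cannot be told apart from these sources. The paper describes the arrays as biological samples and the deposited design as duplicates, and p-values measure the spread between these arrays. In bulk RNA, fewer cells of a type and less RNA per cell cannot be told apart.

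TNF family ligands are mostly trimeric membrane proteins, many of which can be shed as soluble cytokines, and each binds one or a few receptors of the matching receptor family. Receptors with a death domain can recruit caspase-activating complexes, receptors without one bind TRAF adaptors and lead to NF-kB and MAP kinase signalling, and decoy receptors bind ligand without signalling. In skeletal muscle, TNF is known as a cytokine of wasting and of injury, and the TWEAK receptor Tnfrsf12a is known from muscle regeneration.

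Values are log2 signals. All 6 arrays had a median log2 signal between 5.70 and 5.77, correlations between arrays ran from 0.991 to 0.994 within groups and from 0.992 to 0.994 between groups. STEE50-M replicate 2 stood apart in myotube genes: all 10 myotube markers were highest on this array, and their mean was 14.94 there, against 14.13 to 14.40 on the other arrays. Differences past the thresholds at the higher dose are therefore given with and without it. A probe set was taken as above background where its mean exceeded 5.32, the 95th percentile of 1448 chemosensory receptor probe sets (olfactory, taste and vomeronasal). All 10 myotube markers lay above this level, while 0 of 5 B cell, 0 of 5 endothelial, 1 of 6 macrophage (Cd68) and 2 of 5 T cell markers (Cd4 and Cd2) did, and the pan-leukocyte marker Ptprc and the T cell marker Cd3e lay below it. Of 5 myoblast and reserve cell markers, 4 were also above it (Myf5, Cd34, Mki67 and Top2a) and Pax7 was not. Fused and unfused cells cannot be told apart in these signals.

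The myotube cultures gave signal above background mainly for receptors. Of the 42 members, 17 (40.5%) had a mean over the 6 arrays above the level, against 12055 probe sets (54.3%) of the whole array. These were 14 of 26 receptors (53.8%) and 3 of 16 ligands (18.8%), the ligands being Lta, Tnfsf14 and Tnfsf15. The probe set shared by the ligands Tnfsf12 and Tnfsf13, kept out of these counts, was also above the level with a mean of 6.52. With the background set at the 90th percentile (4.92) 22 members were above it, and at the 99th percentile (5.80) 14 were. Tnf itself, Fasl, Ltb and Tnfsf11 (RANKL, the osteoclast-inducing ligand) were below it at 5.32. The plot of log2 signals for each member shows this split.

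**Figure D1:**
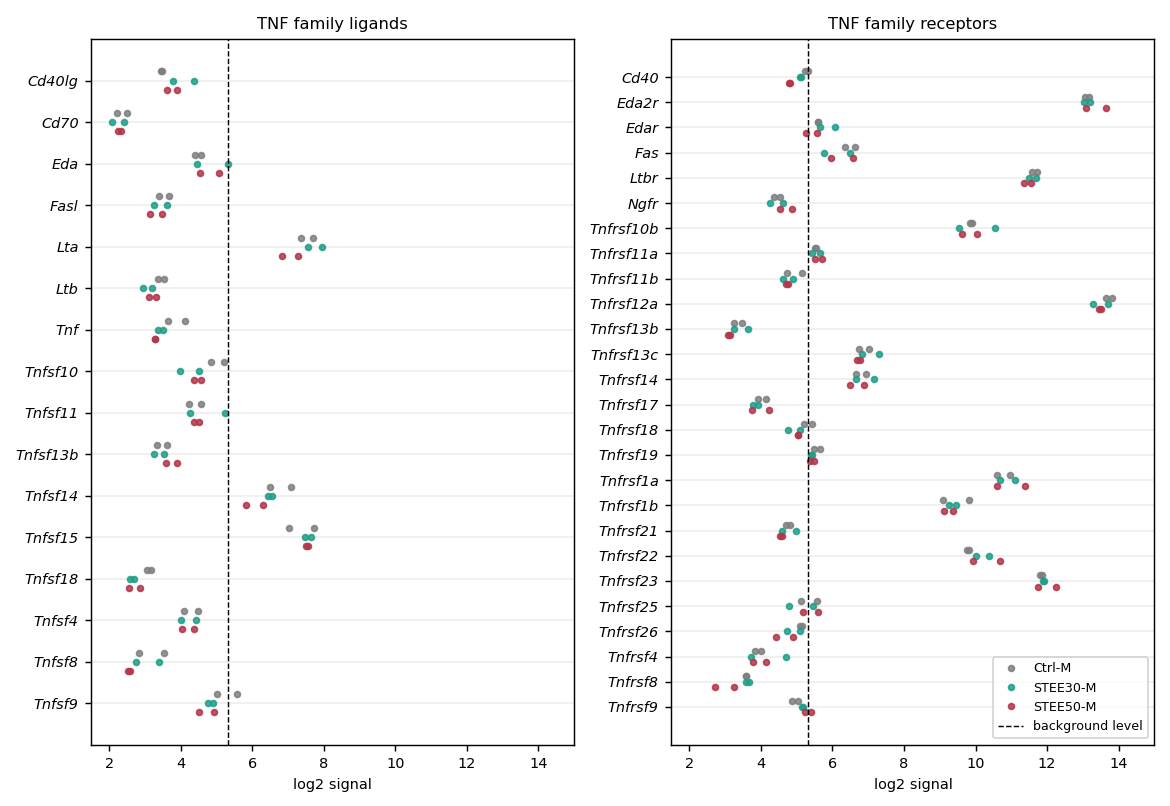
Log2 signal of the 16 ligands (left) and 26 receptors (right) on each of the 6 arrays, one dot per array, for Ctrl-M (grey), STEE30-M (green) and STEE50-M (red). The dashed line is the background level of 5.32, and 3 ligands and 14 receptors have their mean over the 6 arrays to its right.

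Differences were set against the study's thresholds, an unadjusted p under 0.05, here by limma, and a fold limit of 1.2, and against p-values adjusted over all 22206 probe sets. The methods state the fold limit as log2. It was read as linear here, because the paper lists called C2C12 genes whose fold changes are too small to pass a log2 limit of 1.2. Read as log2 it leaves 0 members past the thresholds in each of the 3 comparisons. Of the ligands, Tnfsf14 (LIGHT), which binds Ltbr and Tnfrsf14, passed the thresholds at the higher dose. Its log2 signals were 7.09 and 6.50 in Ctrl-M, 6.45 and 6.56 in STEE30-M and 5.82 and 6.29 in STEE50-M. Both STEE50-M arrays were below every array of the other groups, and the STEE30-M and Ctrl-M arrays overlapped. Relative to Ctrl-M the log2 difference was -0.29 in STEE30-M (SE 0.27, limma, adjusted p = 0.998) and -0.74 in STEE50-M (SE 0.27, adjusted p = 0.952). Tnfsf14 was the only one of the 17 members above background to pass against Ctrl-M at either dose. It did not pass without Ctrl-M replicate 1, where the log2 difference was -0.44, or without STEE50-M replicate 1, where it was -0.50, and passed without STEE50-M replicate 2, where it was -0.97.

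Lta, which encodes lymphotoxin alpha, a secreted ligand of the TNF receptors, differed between the doses. Its log2 signals were 7.69 and 7.37 in Ctrl-M, 7.95 and 7.55 in STEE30-M and 7.28 and 6.84 in STEE50-M. The STEE50-M arrays were the lowest of the 6, while the STEE30-M arrays overlapped the controls. The log2 difference of STEE50-M from STEE30-M was -0.69 (SE 0.25, adjusted p = 0.997), past the thresholds, and that of STEE50-M from Ctrl-M was -0.47 (SE 0.25, adjusted p = 0.952), not past them. The difference between the doses did not pass without STEE30-M replicate 1 (-0.49) or without STEE50-M replicate 2 (-0.47). Tnfsf15 (TL1A, the ligand of Tnfrsf25) had 7.73 and 7.04 in Ctrl-M, 7.48 and 7.63 in STEE30-M and 7.51 and 7.56 in STEE50-M. The treated arrays lay within the range of the control arrays.

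The probe set of Tnf, the founding cytokine of the family, gave log2 signals of 3.65 and 4.13 in Ctrl-M, 3.37 and 3.50 in STEE30-M and 3.27 and 3.28 in STEE50-M. The treated arrays were all below both controls, and all 6 values were below the background level. The log2 difference from Ctrl-M was -0.45 in STEE30-M (SE 0.23, adjusted p = 0.998), not past the thresholds, and -0.61 in STEE50-M (SE 0.23, adjusted p = 0.952), past them. The paper's own ANOVA also called Tnf lower at the higher dose. Without Ctrl-M replicate 2, the higher control array, the log2 difference at the higher dose was -0.38 and did not pass. It was -0.61 without STEE50-M replicate 1 and -0.62 without STEE50-M replicate 2, and passed in neither case.

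Tnfsf10 (TRAIL), a ligand that can trigger cell death through Tnfrsf10b, passed at the lower dose by limma. The paper's own ANOVA called Tnfsf10 lower at the higher dose and not at the lower one. Its log2 signals were 4.86 and 5.20 in Ctrl-M, 3.97 and 4.52 in STEE30-M and 4.36 and 4.56 in STEE50-M. Each treated array was below both controls, the doses overlapped and all 6 values were below background. The log2 difference from Ctrl-M was -0.79 in STEE30-M (SE 0.25, adjusted p = 0.998) and -0.57 in STEE50-M (SE 0.25, adjusted p = 0.952). Between the doses it was 0.22 (SE 0.25), STEE50-M above STEE30-M. The lower-dose difference did not pass without Ctrl-M replicate 2 (-0.62) or STEE30-M replicate 1 (-0.51).

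Cd40lg, the T cell ligand that activates B cells and other cells through Cd40, was the only member past the thresholds with a higher signal. It had 3.44 and 3.47 in Ctrl-M, 4.38 and 3.79 in STEE30-M and 3.89 and 3.62 in STEE50-M. The treated arrays were all above both controls and all 6 values were below background. The log2 difference from Ctrl-M was 0.63 in STEE30-M (SE 0.25, adjusted p = 0.998) and 0.30 in STEE50-M (SE 0.25, adjusted p = 0.978). It did not pass in STEE30-M without Ctrl-M replicate 1 (0.62), Ctrl-M replicate 2 (0.64) or STEE30-M replicate 1 (0.34).

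Its receptor Cd40, which signals through TRAF proteins, had lower signals at the higher dose. Its log2 signals were 5.32 and 5.24 in Ctrl-M, 5.12 and 5.10 in STEE30-M and 4.81 and 4.79 in STEE50-M. The groups did not overlap at any step and followed the dose, at or just under the background level. The log2 difference from Ctrl-M was -0.17 in STEE30-M (SE 0.20, adjusted p = 0.998), not past the thresholds, and -0.48 in STEE50-M (SE 0.20, adjusted p = 0.952), past them. Between the doses it was -0.31 (SE 0.20). At the higher dose Cd40 did not pass with any of the 4 arrays compared left out: the log2 difference was -0.44 without Ctrl-M replicate 1, -0.52 without Ctrl-M replicate 2, -0.49 without STEE50-M replicate 1 and -0.47 without STEE50-M replicate 2. It also did not pass with a variance trend (-0.48) or after another quantile normalisation (-0.44).

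Tnfrsf8 (CD30), a receptor best known on activated lymphocytes, was the only member to pass in more than one comparison. Its log2 signals were 3.57 and 3.57 in Ctrl-M, 3.67 and 3.57 in STEE30-M and 2.73 and 3.24 in STEE50-M. The STEE50-M arrays were below the rest, the other 4 arrays lay between 3.57 and 3.67, and all 6 were below background. The log2 difference of STEE50-M was -0.58 from Ctrl-M (SE 0.23, adjusted p = 0.952) and -0.64 from STEE30-M (SE 0.23, adjusted p = 0.997), and that of STEE30-M from Ctrl-M was 0.05 (SE 0.23). Both comparisons that passed rest on one pair of STEE50-M arrays. Leaving out STEE50-M replicate 1, the log2 difference was -0.33 from Ctrl-M and -0.38 from STEE30-M, neither past the thresholds. Both passed without STEE50-M replicate 2, at -0.84 from Ctrl-M and -0.89 from STEE30-M. The difference from Ctrl-M was also not past the thresholds without either control array (-0.58 both times), nor that from STEE30-M without STEE30-M replicate 1 (-0.58).

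Its ligand Tnfsf8 (CD30 ligand) had 3.53 and 2.83 in Ctrl-M, 2.75 and 3.40 in STEE30-M and 2.52 and 2.57 in STEE50-M. The STEE50-M arrays were again the lowest, but the controls were widely spread and the log2 difference from Ctrl-M of -0.64 (SE 0.30, adjusted p = 0.952) missed the thresholds. Tnfsf18, the ligand of the T cell receptor GITR (Tnfrsf18), had 3.06 and 3.17 in Ctrl-M, 2.58 and 2.69 in STEE30-M and 2.86 and 2.55 in STEE50-M. All treated arrays were below both controls, with log2 differences of -0.48 in STEE30-M (SE 0.21, adjusted p = 0.998) and -0.41 in STEE50-M (SE 0.21, adjusted p = 0.952). Neither difference passed the thresholds by limma. The paper's own ANOVA called both Tnfsf8 and Tnfsf18 lower at the higher dose. All values of these 2 genes were below background.

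**Figure D2:**
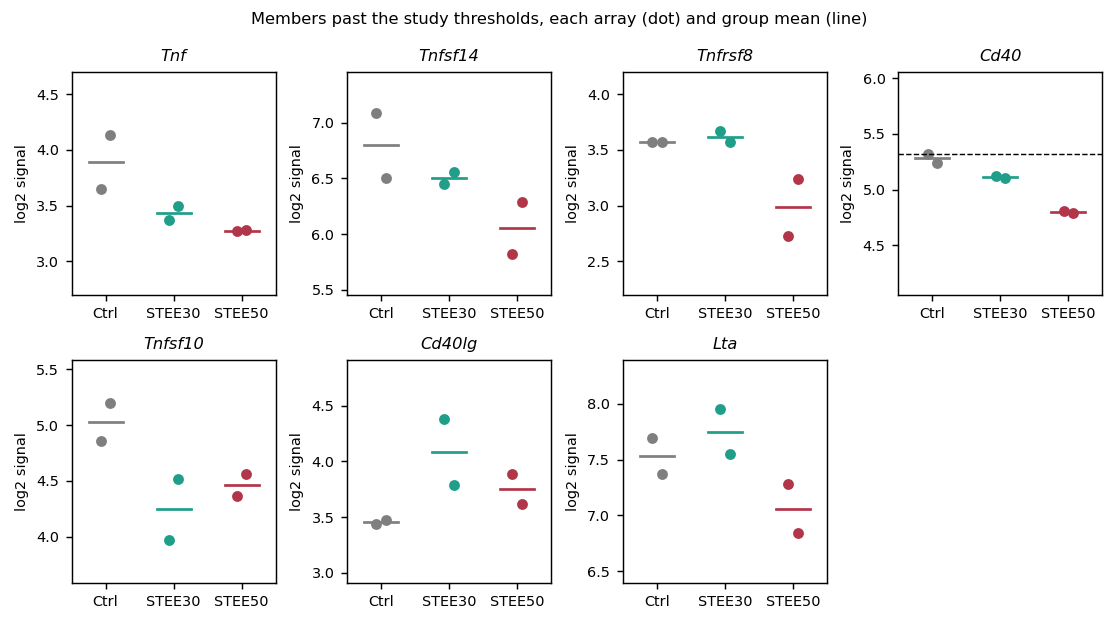
Log2 signal of the 7 members that passed the study's thresholds in at least one comparison, by group (Ctrl for Ctrl-M, STEE30 for STEE30-M, STEE50 for STEE50-M); dots are arrays, short lines group means, each panel spans the same width on the log2 scale, and the dashed line in the Cd40 panel is the background level of 5.32. Tnf, Tnfsf14, Tnfrsf8, Cd40 and Lta have both STEE50-M arrays as the lowest of the 6. Tnf, Tnfsf10, Cd40lg and Tnfrsf8 lie below the background level on all 6 arrays, and their panels do not show the line.

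Many family genes lie next to each other in the genome (RefSeq, GRCm38.p6). Tnf (chr17:35199367-35202007) lies 1.2 kb from Lta (chr17:35203165-35205578) and 3.1 kb from Ltb. In STEE50-M all 3 genes had both arrays below both controls, with log2 differences of -0.61, -0.47 and -0.24, of which that of Tnf passed the thresholds. In STEE30-M the log2 difference of Lta was 0.22, while those of Tnf and Ltb were -0.45 and -0.38, none past them. On the same chromosome Tnfsf14 (chr17:57189474-57194181) lies 39.7 kb from Cd70, which lies 38.2 kb from Tnfsf9, and their log2 differences in STEE50-M were -0.74, -0.09 and -0.57. Tnfrsf8 (chr4:145267132-145315164) lies 20.3 kb from Tnfrsf1b, and theirs were -0.58 and -0.20. The remaining members past the thresholds lie apart from other members: Tnfsf10 at chr3:27317077-27339665, Cd40 at chr2:165055614-165071654 and Cd40lg at chrX:57212143-57224042.

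The bases before the start of the gene are shown for 4 of the members past the thresholds, so that the stretch RNA polymerase is loaded on can be read beside their values. RefSeq promoter entries (GRCm38.p6) matched 33 of the 42 members, and Cd40 and Cd40lg were not among them. The entry of Lta overlaps the annotated gene and is not shown. Each line holds the 250 bases before the start of transcription, 5′ to 3′ on the strand of the gene. Capitals mark matches to 3 motifs: GGGNNNTTCC for NF-kB and TGANTCA for AP-1, both searched on both strands, and TATAAA on the strand of the gene. Tnf (chr17:35202008-35202257, minus strand), Tnfsf14 (chr17:57194182-57194431, minus strand), Tnfrsf8 (chr4:145315165-145315414, minus strand) and Tnfsf10 (chr3:27316827-27317076, plus strand) read as follows.
Tnf: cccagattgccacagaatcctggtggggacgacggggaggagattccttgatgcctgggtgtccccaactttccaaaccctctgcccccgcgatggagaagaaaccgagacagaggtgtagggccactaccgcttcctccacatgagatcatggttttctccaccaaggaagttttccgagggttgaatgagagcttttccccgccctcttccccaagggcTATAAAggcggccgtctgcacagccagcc
Tnfsf14: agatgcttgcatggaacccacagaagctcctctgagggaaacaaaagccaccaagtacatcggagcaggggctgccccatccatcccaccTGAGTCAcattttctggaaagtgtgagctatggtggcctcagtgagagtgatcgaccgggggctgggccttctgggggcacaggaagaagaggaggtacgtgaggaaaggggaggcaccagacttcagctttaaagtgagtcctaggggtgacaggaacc
Tnfrsf8: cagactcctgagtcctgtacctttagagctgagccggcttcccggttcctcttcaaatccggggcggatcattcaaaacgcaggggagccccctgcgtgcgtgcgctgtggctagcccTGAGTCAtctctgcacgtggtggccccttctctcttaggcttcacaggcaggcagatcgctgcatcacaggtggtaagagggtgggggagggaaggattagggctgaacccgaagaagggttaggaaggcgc
Tnfsf10: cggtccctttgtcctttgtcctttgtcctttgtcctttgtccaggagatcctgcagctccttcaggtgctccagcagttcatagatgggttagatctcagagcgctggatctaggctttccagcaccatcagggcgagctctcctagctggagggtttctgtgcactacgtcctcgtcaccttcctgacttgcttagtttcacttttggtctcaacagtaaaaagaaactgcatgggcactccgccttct
Tnf had a TATAAA match starting 29 bases before the start, the place of a classical TATA box, and 8.12% of all 27025 promoters held the letters anywhere in this window. Tnfsf14 and Tnfrsf8 each had 1 AP-1 match, 160 and 132 bases before the start, and 6.87% of all promoters held one. Tnfsf10 held none of the 3 motifs. The NF-kB letters were in 4.6% of all promoters, and among the 33 members' first entries in those of Eda2r, Ltb and Tnfrsf25. A match is a description of the letters only. The 15 promoters of members above background held a median of 9 CpG dinucleotides and the 18 of members not above it 6.5, against 16 and 3 for all genes above (8636) and not above (6905) background on the array.

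Of the 14 receptors above background, 0 passed in any of the 3 comparisons by limma, where 2.28% of all probe sets above background passed in STEE30-M against Ctrl-M, 3.67% in STEE50-M against Ctrl-M and 2.77% between the doses. At 14 genes a count of 0 is near these shares. Tnfrsf12a, the TWEAK receptor, had 13.64 and 13.82 in Ctrl-M, 13.28 and 13.69 in STEE30-M and 13.45 and 13.50 in STEE50-M. The STEE50-M arrays were both below the controls by a little, with a log2 difference of -0.26 (SE 0.22). Its ligand TWEAK (Tnfsf12) shared a probe set with Tnfsf13, which read 6.55 and 6.48 in Ctrl-M, 6.98 and 6.18 in STEE30-M and 6.54 and 6.37 in STEE50-M. These arrays overlapped throughout.

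Eda2r, a receptor of one form of ectodysplasin, had log2 signals of 13.18 and 13.06 in Ctrl-M, 13.04 and 13.20 in STEE30-M and 13.09 and 13.66 in STEE50-M. STEE50-M replicate 2 was above the rest and replicate 1 among them, and the log2 difference from Ctrl-M was 0.26 (SE 0.24). Ltbr, the receptor of membrane lymphotoxin and of Tnfsf14, had 11.71 and 11.59 in Ctrl-M, 11.49 and 11.68 in STEE30-M and 11.35 and 11.55 in STEE50-M. Both STEE50-M arrays were below both controls, by a log2 difference of -0.20 (SE 0.21). Tnfrsf14 (HVEM), the other Tnfsf14 receptor, had 6.94 and 6.65 in Ctrl-M, 7.17 and 6.66 in STEE30-M and 6.87 and 6.49 in STEE50-M, with all groups overlapping.

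For the receptors of TNF the arrays of the 3 groups overlapped. Tnfrsf1a, the death domain receptor through which most TNF signalling runs, had 10.96 and 10.59 in Ctrl-M, 10.69 and 11.09 in STEE30-M and 11.39 and 10.60 in STEE50-M. Tnfrsf1b, which lacks the domain, had 9.82 and 9.08 in Ctrl-M, 9.26 and 9.46 in STEE30-M and 9.37 and 9.13 in STEE50-M. The STEE50-M arrays of Tnfrsf1a enclosed those of STEE30-M, and the log2 differences of STEE50-M from Ctrl-M were 0.22 for Tnfrsf1a (SE 0.30) and -0.20 for Tnfrsf1b (SE 0.28).

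The TRAIL death receptor Tnfrsf10b and the decoys Tnfrsf22 and Tnfrsf23 were above background, while TRAIL itself (Tnfsf10) was not. The remaining decoy receptor, Tnfrsf11b, had a mean of 4.81, below the level. Tnfrsf10b had 9.84 and 9.91 in Ctrl-M, 9.54 and 10.55 in STEE30-M and 9.61 and 10.04 in STEE50-M, and the STEE30-M arrays enclosed all the others. The mouse decoy receptor Tnfrsf22 had 9.76 and 9.83 in Ctrl-M, 10.02 and 10.39 in STEE30-M and 9.93 and 10.67 in STEE50-M. Every treated array of Tnfrsf22 was above both controls, with log2 differences of 0.41 in STEE30-M (SE 0.28) and 0.50 in STEE50-M (SE 0.28), neither past the thresholds. Tnfrsf22 and Tnfrsf23 were highest on STEE50-M replicate 2, the array on which the myotube markers were highest, and the part of this in their differences was not tested. Tnfrsf23, its neighbouring decoy gene, had 11.86 and 11.81 in Ctrl-M, 11.89 and 11.92 in STEE30-M and 11.74 and 12.24 in STEE50-M. The STEE30-M arrays of Tnfrsf23 were slightly above both controls, and the STEE50-M arrays fell on either side. The sources used here do not say how well the probes separate these similar genes.

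Among the other receptors above background, Fas, the death receptor of Fasl, had 6.34 and 6.63 in Ctrl-M, 6.49 and 5.76 in STEE30-M and 5.97 and 6.58 in STEE50-M, all overlapping. Edar, the ectodysplasin receptor of skin appendages, had 5.60 and 5.60 in Ctrl-M, 6.07 and 5.66 in STEE30-M and 5.25 and 5.56 in STEE50-M. Edar was above both controls at the lower dose and below them at the higher one, with a log2 difference between the doses, STEE50-M minus STEE30-M, of -0.46 (SE 0.23), not past the thresholds. Tnfrsf13c (the BAFF receptor of B cells) had 6.73 and 7.02 in Ctrl-M, 7.30 and 6.82 in STEE30-M and 6.76 and 6.68 in STEE50-M. Its STEE50-M arrays were below both STEE30-M arrays and overlapped the controls.

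Tnfrsf11a (RANK, the receptor of Tnfsf11) had 5.50 and 5.55 in Ctrl-M, 5.65 and 5.42 in STEE30-M and 5.72 and 5.52 in STEE50-M. Tnfrsf19 (TROY) had 5.49 and 5.65 in Ctrl-M, 5.39 and 5.43 in STEE30-M and 5.47 and 5.38 in STEE50-M. Both were close to the background level, and only Tnfrsf19 had all treated arrays below both controls, with log2 differences of -0.16 in STEE30-M and -0.14 in STEE50-M (SE 0.20 for each). Of the members below background, Tnfrsf9 (4-1BB, a T cell costimulatory receptor) was named after its values were seen: its treated arrays, 5.16 and 5.18 in STEE30-M and 5.22 and 5.41 in STEE50-M, were all above the 5.05 and 4.87 of Ctrl-M.

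In STEE30-M against Ctrl-M 2 of 42 members (4.76%) passed, 1 lower and 1 higher, against 4.09% of all probe sets, 2.06% lower and 2.04% higher. In STEE50-M against Ctrl-M 4 members (9.52%) passed, all 4 lower and 0 higher, while 5.05% of all probe sets did, 2.69% lower and 2.36% higher. In STEE50-M against STEE30-M 2 members (4.76%) passed, both lower, against 4.61% of all probe sets, 2.36% lower and 2.25% higher. The shares in STEE30-M and between the doses were near those of the array, and that in STEE50-M was higher but rests on 4 members. Of these, 3 were among the 25 members not above background (12%), where 6.68% of all such probe sets passed. The other was 1 of the 17 above background (5.88%), against 3.67% of all such probe sets. Counts this small do not set the family apart from the array. Without STEE50-M replicate 2 the log2 differences from Ctrl-M were -0.97 for Tnfsf14, -0.84 for Tnfrsf8, -0.62 for Tnf and -0.47 for Cd40. Between the doses they were then -0.89 for Tnfrsf8 and -0.47 for Lta. By limma with Benjamini-Hochberg adjustment over all probe sets, 0 probe sets had an adjusted p under 0.05, where 909, 1121 and 1023 had an unadjusted p under 0.05 in STEE30-M and STEE50-M against Ctrl-M and in STEE50-M against STEE30-M. The smallest adjusted p of a member was 0.998, 0.952 and 0.997 in the same comparisons, and an exact test of 2 arrays against 2 cannot go below p = 0.333. Both comparisons with Ctrl-M share the same 2 control arrays. With an unmoderated test, Cd40 alone of the 7 members kept its call (STEE50-M against Ctrl-M).

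**Figure D3:**
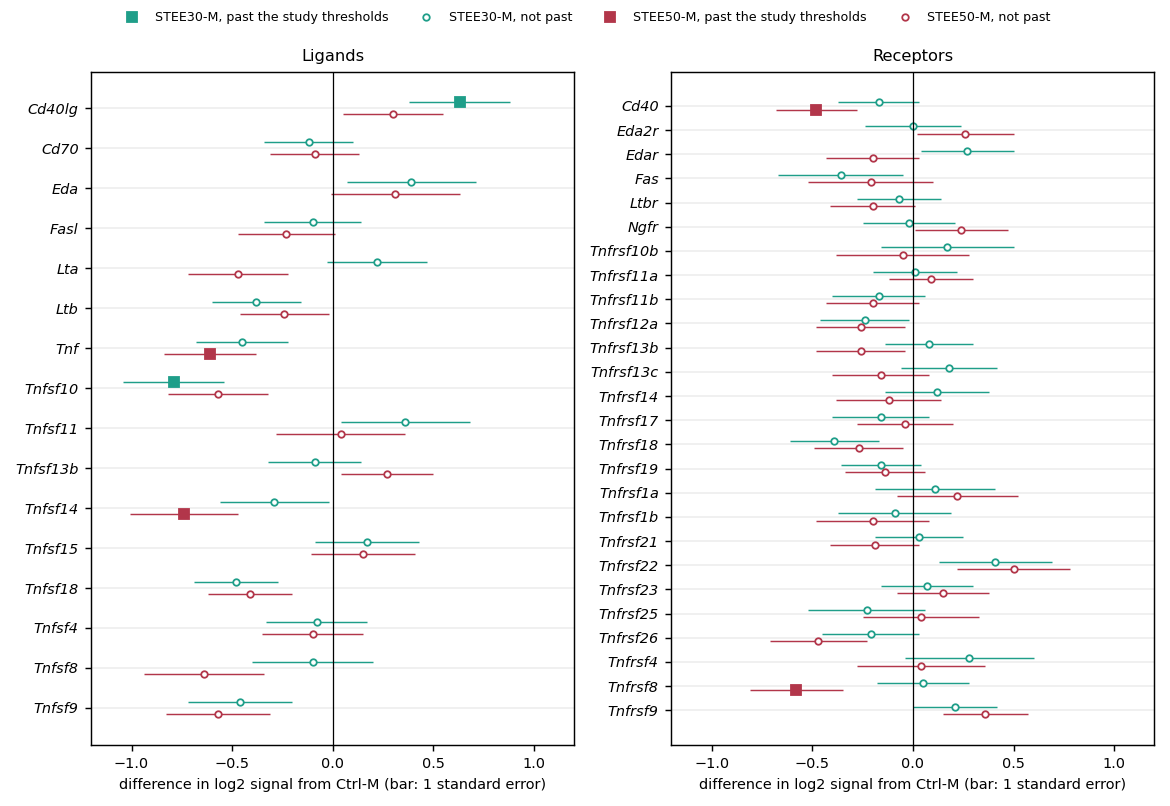
Difference in log2 signal from Ctrl-M of the 16 ligands (left) and 26 receptors (right) in STEE30-M (green) and STEE50-M (red), with bars of 1 standard error from limma; filled squares passed the study's thresholds and open circles did not. Tnfsf14, Tnf, Tnfrsf8 and Cd40 are the filled squares at the higher dose, and Tnfsf10 and Cd40lg those at the lower dose.

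The median of the family was below that of all probe sets at both doses. In STEE30-M the members' median log2 difference from Ctrl-M was -0.07, with 23 of 42 negative (54.8%), and that of all probe sets -0.01, with 50.9% negative. Without Ctrl-M replicate 1 the members' median at that dose was 0.04. In STEE50-M the members' median was -0.17, with 28 negative (66.7%), and that of all probe sets -0.01, with 51.5% negative. Without STEE50-M replicate 2 the members' median at the higher dose was -0.13. At the lower dose the median of the ligands was negative and that of the receptors near 0, and both were negative at the higher dose. On the single STEE30-M arrays the receptors' medians were -0.03 and -0.05. The median of the ligands was -0.10 at the lower and -0.23 at the higher dose, and that of the receptors 0.01 at the lower and -0.15 at the higher dose. By class of receptor, the median at the higher dose was -0.18 for the 16 without a death domain, -0.05 for the 7 with one, of which 3 were positive, and 0.15 for the 3 decoy receptors. Members above background had, at the lower dose, a median on the other side of 0 from the rest: it was 0.07 in STEE30-M and -0.14 in STEE50-M. Those not above it had -0.10 at the lower and -0.20 at the higher dose.

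The arrays were also compared for overlap. In STEE30-M both arrays were below both Ctrl-M arrays for 9 members (21.4%), against 15.8% of all probe sets, and above both for 5 (11.9%), against 14.5%. In STEE50-M both arrays were below both controls for 18 members (42.9%), against 18.6% of all probe sets, and above both for 3 (7.14%), against 16.1%. Between the doses both STEE50-M arrays were below both STEE30-M arrays for 9 members (21.4%), against 14.9% of all probe sets, and above both for 2 (4.76%), against 13.5%. The 18 members at the higher dose were 8 ligands (Lta, Ltb, Tnf, Tnfsf8, Tnfsf9, Tnfsf10, Tnfsf14 and Tnfsf18) and 10 receptors (Cd40, Edar, Ltbr, Tnfrsf8, Tnfrsf12a, Tnfrsf13b, Tnfrsf18, Tnfrsf19, Tnfrsf21 and Tnfrsf26). Of these 18, 6 were above background.

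Per array, the median difference of the 42 members from their Ctrl-M means was 0.03 and -0.03 in Ctrl-M, -0.08 and -0.05 in STEE30-M and -0.14 and -0.18 in STEE50-M. These groups did not overlap, while the median of all probe sets stayed between -0.01 and 0.00 on every array. The Ctrl-M values mirror each other because they are centred on their own mean. The same centring places them around 0 and carries any error of the control means into every treated array. The treated arrays therefore do not part from Ctrl-M independently. The order by dose was not shared by all members: those above background had 0.02 and -0.03 in Ctrl-M, 0.01 and 0.02 in STEE30-M and -0.10 and -0.10 in STEE50-M, so that STEE30-M overlapped Ctrl-M. The ligands had 0.11 and -0.11 in Ctrl-M, -0.29 and -0.06 in STEE30-M and -0.16 and -0.31 in STEE50-M, overlapping between the doses and between STEE30-M and Ctrl-M. The B cell markers moved the same way: the mean log2 signal of the list lay between 4.07 and 4.12 in Ctrl-M, 3.78 and 4.02 in STEE30-M, and 3.61 and 3.86 in STEE50-M, with 0 of 5 above background. The macrophage list lay between 4.30 and 4.51 in Ctrl-M, 4.25 and 4.46 in STEE30-M, and 4.14 and 4.30 in STEE50-M, with Cd68 above background and Ptprc below it. The T cell list lay between 4.83 and 4.88 in Ctrl-M, 4.81 and 5.26 in STEE30-M, and 4.99 and 5.05 in STEE50-M. The myotube list, with all 10 above background, lay between 14.13 and 14.28 in Ctrl-M, 14.14 and 14.40 in STEE30-M, and 14.18 and 14.94 in STEE50-M, the last value being that of replicate 2. The myoblast and reserve cell list lay between 10.52 and 10.64 in Ctrl-M, 10.38 and 10.75 in STEE30-M, and 10.43 and 10.70 in STEE50-M. The part of these lists in the family's shift was not tested. The median spread between replicates (SD) of members was 0.16 for the Ctrl-M arrays, 0.25 for STEE30-M and 0.22 for STEE50-M, wider than that of all probe sets (0.15 for Ctrl-M, 0.19 for STEE30-M, 0.18 for STEE50-M).

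**Figure D4:**
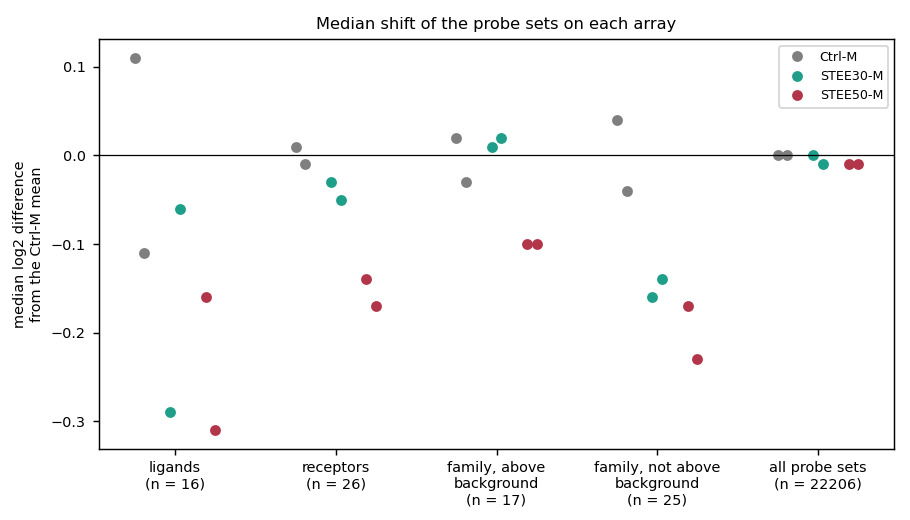
Median difference in log2 signal from the Ctrl-M mean on each array, one dot per array, for ligands, receptors, family members above and not above background, and all probe sets, in Ctrl-M (grey), STEE30-M (green) and STEE50-M (red). Both STEE50-M arrays lie below both Ctrl-M arrays in each family group, while all probe sets stay between -0.01 and 0.00.

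The genes that carry the signal onward were counted in the same way. Of 48 genes in 4 lists of adaptors, NF-kB proteins, ubiquitin regulators and ligand sheddases, all were on the array and 41 were above background. In STEE30-M against Ctrl-M 0 passed the thresholds by limma, in STEE50-M against Ctrl-M 1 passed, lower, and between the doses 0 passed, with medians over the 48 genes of -0.03, 0.01 and 0.02. Over all probe sets 4.09%, 5.05% and 4.61% passed in these comparisons, and over those above background 2.28%, 3.67% and 2.77%, so that counts this low in 48 genes are near the array's shares. The gene that passed was Rel, the NF-kB subunit c-Rel, with 9.42 and 9.68 in Ctrl-M, 9.07 and 9.25 in STEE30-M and 9.04 and 9.06 in STEE50-M. All treated arrays were below both controls, and the log2 difference in STEE50-M was -0.50 (SE 0.21, adjusted p = 0.952). Rel did not pass with any of the 4 Ctrl-M and STEE50-M arrays left out: the log2 difference was -0.63 without Ctrl-M replicate 1, -0.37 without Ctrl-M replicate 2, -0.49 without STEE50-M replicate 1 and -0.51 without STEE50-M replicate 2.

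Among the 18 receptor-proximal adaptors and kinases the median difference from Ctrl-M was -0.06 in STEE30-M and -0.10 in STEE50-M. Casp8, the initiator caspase of death receptors, had 11.87 and 11.74 in Ctrl-M, 11.56 and 11.49 in STEE30-M and 11.42 and 11.29 in STEE50-M. Its arrays followed the dose without overlap, with a log2 difference of -0.45 in STEE50-M (SE 0.20) that missed the thresholds. The ubiquitin ligase Xiap, which inhibits caspases, and the adaptor Traf4 had log2 differences of 0.20 and -0.01 in STEE50-M. In the NF-kB module of 18 genes, the subunit Rela, the kinase Map3k7 (TAK1) and the TBK1-binding adaptor Tank differed from Ctrl-M by 0.05, -0.08 and -0.06.

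Of the 8 linear ubiquitin and deubiquitinase regulators, 8 were above background, and the brakes on NF-kB Tnfaip3 (A20), Cyld and Otud7b differed by -0.05, 0.23 and -0.03 in STEE50-M. Tnfaip3, itself a target of TNF signalling, had 10.71 and 10.42 in Ctrl-M, 10.50 and 10.58 in STEE30-M and 10.50 and 10.54 in STEE50-M, inside the range of the controls. Of the 4 ligand shedding genes, the protease Adam17, which releases TNF from the membrane, had 11.96 and 11.82 in Ctrl-M, 12.03 and 12.02 in STEE30-M and 11.91 and 12.21 in STEE50-M, not past the thresholds at either dose. Adam10, a related sheddase, and Rhbdf1, a cofactor of Adam17, differed by -0.09 and 0.11 in STEE50-M.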

How the data were processed

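RNA from 6 C2C12 myotube samples was hybridised by the authors to Clariom S mouse arrays. The deposited log2 signals, one column per array, had been background corrected, normalised and summarised per probe set by the authors with SST-RMA (per the file headers in Expression Console 1.4.1.46, and the methods name Transcriptome Analysis Console). They are rounded to 2 decimals. Arrays give no read depth, so their number limits the precision. The series value table held the same 173076 values. The authors' table of pooled log2 averages has another scale (SD over probe sets of the Ctrl-M average 2.23, against 3.39 in the per-array values) and served only as an alternative. That table also holds the authors' fold changes, p-values, FDR and F-test, which were not used.

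From the 28846 rows, 6640 array controls were left out. The 3 group means were fitted to all 6 arrays with limma 3.58.1 (lmFit and eBayes, R 4.3.3, 3 residual and 5.75 prior degrees of freedom), with Benjamini-Hochberg adjustment over 22206 probe sets. The study states p under 0.05 and a fold limit of 1.2 that its methods call log2; the limit was read here as linear, with log2 as an alternative. The fit was tested on simulated data with known changes. Groups came from the labels.

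Named are members past the thresholds in any comparison, members above background, members the study names, and, of the signalling lists, the genes past the thresholds and the 3 with the highest mean signal. The members, lists and this rule were chosen with earlier results of these data known. Alternatives were a replicate block, 2 groups only, an unmoderated test, a variance trend, a background filter, repeated quantile normalisation, a log2 limit, other background percentiles, pooled averages and leaving out each array.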

Additional observations from a re-analysis of the deposited data

Results flagged for a closer look

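For 2 members the difference between the doses was itself past the study's thresholds, and these are singled out here for that reason. Tnfrsf8 had a log2 difference of STEE50-M from STEE30-M of -0.64 (limma, adjusted p = 0.997), with both STEE50-M arrays below both STEE30-M arrays, at signals below background. Lta had -0.69 (limma, adjusted p = 0.997), with both STEE50-M arrays lower and all arrays above background. In this comparison 4.61% of all probe sets passed.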

How the results depend on the processing

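None of the differences named as past the thresholds changed direction under any alternative run, but most of these settings could not have reversed one. The groups compared did not overlap, so leaving out an array keeps the sign. The other tests, the background filter and the log2 limit keep the same difference. Only the repeated quantile normalisation and the pooled averages could have reversed a direction. In STEE30-M against Ctrl-M the 2 members past the thresholds became 1 (Tnfsf18, neither of the original ones) with an unmoderated test, 0 with probe sets above background only and 0 with a log2 limit of 1.2, and 1 (without Ctrl-M replicate 2) to 4 (without STEE30-M replicate 2) when an array was left out. In STEE50-M against Ctrl-M the 4 became 2 (Cd40, and Tnfrsf9 with a higher signal), 1 and 0 under the same settings, and 1 (without Ctrl-M replicate 1) to 6 (without either STEE30-M array) with an array left out. In STEE50-M against STEE30-M the 2 became 1 (Cd40, neither of the original ones), 1 and 0, and 1 (without either STEE50-M array) to 6 (without STEE30-M replicate 2) with an array left out. Where 1 array of a group was left, its spread was taken from the other groups. The share of all probe sets that passed was not counted under these settings, so these counts cannot be set against the array. The background filter leaves out the dim members by construction, and the cause of the other shifts was not tested. The members' median log2 difference in STEE30-M, -0.07, was 0.07 for members above background, 0.0 with the authors' pooled averages, and -0.08 to 0.04 (without Ctrl-M replicate 1) with an array left out. That in STEE50-M, -0.17, was -0.10 with the pooled averages and -0.18 to -0.13 with an array left out. That between the doses, -0.05, was -0.09 to -0.03 with an array left out and -0.02 for members above background.

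The replicate numbers did not pair the arrays: same-numbered deviations from the group means correlated at 0.0228, 0.0636 and -0.00761. With the replicate block 2, 5 and 2 members passed in STEE30-M and STEE50-M against Ctrl-M and between the doses, the added one being Tnfsf10 at the higher dose. Limits are the 2 arrays a group, the absence of any adjusted call, and signals under the background level for most ligands, where a difference in signal need not be one in transcript.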
